A study of Mus musculus with 9 samples.

Results

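The genes described are 8 of the 24341 gene names in a table of liver mRNA from 9 mice: the TREM receptors Trem1, Trem2, and Trem3, their signalling adaptor Tyrobp, and 4 genes known from lipid-associated macrophages, Gpnmb, Spp1, Cd9, and Fabp5. They were taken by name, and all 8 are in the table. The mice were C57BL/6 with the genotype WT. Livers were taken 48 hours (2 days) after 3 mice (numbered 2, 5, and 9) received FGK45, an agonist antibody that activates CD40, and after 6 control mice (3, 4, 7, 8, 11, and 12) received PBS. Control mice therefore received no antibody of another specificity. By the study's methods the mice were young adults, and mice whose blood B cells did not fall after anti-CD40 were excluded, without a statement on these 9 livers. Age and sex of these 9 mice are not in the labels. The tissue label was checked against 10 hepatocyte genes, whose summed FPKM was 28048 to 48433 in the control livers and 8312 to 10352 after anti-CD40.

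TREM receptors are surface proteins of myeloid cells with short tails that cannot signal alone. They pair with DAP12, the product of Tyrobp, whose ITAM motif recruits the kinase Syk. TREM1 and TREM3 are known from neutrophils and monocytes, where TREM1 amplifies inflammatory signals, whereas TREM2 is known from macrophages, where it binds lipids, lipoproteins, and debris of dead cells. Macrophages that take up much lipid in fat, injured liver, or brain are known to carry TREM2 together with the lysosomal glycoprotein GPNMB, the secreted phosphoprotein osteopontin (Spp1), the tetraspanin CD9, and the fatty acid carrier FABP5. Other liver cells also make some of these products, among them cholangiocytes (osteopontin) and platelets (CD9).

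The 250 bases before the gene start are shown for 4 genes that the results turn on. Trem2, which among Trem1, Trem2, and Trem3 stayed nearest its control level, is set beside Trem1, and Gpnmb is set beside Spp1. The sequences are from RefSeq on GRCm38.p6, the assembly that mm10 names, are all on the plus strand, and run 5′ to 3′ up to the base before the start. They lie at chr17:48232489-48232738 (Trem1), chr17:48346151-48346400 (Trem2), chr6:49036268-49036517 (Gpnmb), and chr5:104434861-104435110 (Spp1). Capitals mark matches to the motifs named next.
Trem1: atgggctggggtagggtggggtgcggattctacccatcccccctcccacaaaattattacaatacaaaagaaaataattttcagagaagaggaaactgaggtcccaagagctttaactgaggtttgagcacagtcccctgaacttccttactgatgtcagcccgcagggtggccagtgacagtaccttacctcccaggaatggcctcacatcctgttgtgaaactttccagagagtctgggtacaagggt
Trem2: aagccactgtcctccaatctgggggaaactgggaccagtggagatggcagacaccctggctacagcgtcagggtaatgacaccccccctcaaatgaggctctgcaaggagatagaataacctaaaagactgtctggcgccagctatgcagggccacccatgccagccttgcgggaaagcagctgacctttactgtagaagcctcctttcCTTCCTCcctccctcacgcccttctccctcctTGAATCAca
Gpnmb: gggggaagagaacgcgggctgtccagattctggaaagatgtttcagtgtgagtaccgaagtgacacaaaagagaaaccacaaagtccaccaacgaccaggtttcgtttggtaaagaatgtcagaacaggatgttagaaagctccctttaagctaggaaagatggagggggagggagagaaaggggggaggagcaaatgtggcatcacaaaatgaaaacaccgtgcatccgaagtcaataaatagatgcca
Spp1: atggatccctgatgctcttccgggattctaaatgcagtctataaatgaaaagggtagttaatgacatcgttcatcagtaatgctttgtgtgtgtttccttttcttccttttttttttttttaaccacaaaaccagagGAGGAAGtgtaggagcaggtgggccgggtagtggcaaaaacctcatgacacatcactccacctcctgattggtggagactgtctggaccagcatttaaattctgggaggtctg
Both strands were searched for GAGGAAG (PU.1, a factor of myeloid cells), TGANTCA (a loose form of the AP-1 site), and TTGCNNAA (C/EBP), where N is any base. The search also covered CACGTG (E-box), TCATGTG (M-box, read by MITF and its relatives), and the NF-kB consensus. Among 32817 promoters of this length, the 6 motifs in this order were present in 10.6%, 6.75%, 9.57%, 6.02%, 3.25%, and 0.981%. The Trem2 sequence held CTTCCTC, which is the PU.1 letters on the other strand, starting 41 bases before the start. It also held TGAATCA starting 9 bases before the start, a match to the loose form TGANTCA only, with A as the free middle base. The Spp1 sequence held GAGGAAG starting 113 bases before the start. A second RefSeq start of Spp1, at 104436192, has the C/EBP match TTGCAGAA starting 156 bases before it, and its sequence is not shown. No 2 of these matches overlapped, and the Trem1 and Gpnmb sequences held none of the 6 motifs in this window. The matches are descriptions of letters and not of binding. Of the other 4 genes, Cd9 has an entry with no match, and Trem3, Tyrobp, and Fabp5 have no entry among the promoters used.

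Of the 8 genes, 7 were higher after anti-CD40 than in control livers and none was lower. All 8 passed the filter on low values (0.1 FPKM on average across the 9 livers). Trem1 and Trem3, with control means of 0.0127 and 0.0543 FPKM, passed it only through the anti-CD40 livers. A gene so low in controls could be tested only if it was higher after anti-CD40. With no filter, both were still called higher (adjusted p = 9.69e-08 and 1.23e-05 from limma). Of all 13807 genes tested, 23.5% were called higher and 21.7% lower, 45.1% in either direction. FPKM (fragments counted per kilobase of a transcript and relative to all reads mapped) was compared as log2(FPKM + 0.1) with limma, and called means an adjusted p under 0.05. Fold changes on this scale are smaller than the true change for genes near 0.1 FPKM. The groups did not overlap, with every anti-CD40 mouse above every control mouse, for 6 of the 8 genes, against 22.7% of all genes tested (19.6% were apart with anti-CD40 lower). The exceptions were Trem2 and Fabp5. The median log2 fold change of the 8 genes was 2.02, and that of all genes tested was 0.0056. These are whole livers, so more cells of a type and more RNA per cell cannot be told apart.

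**Figure D1:**
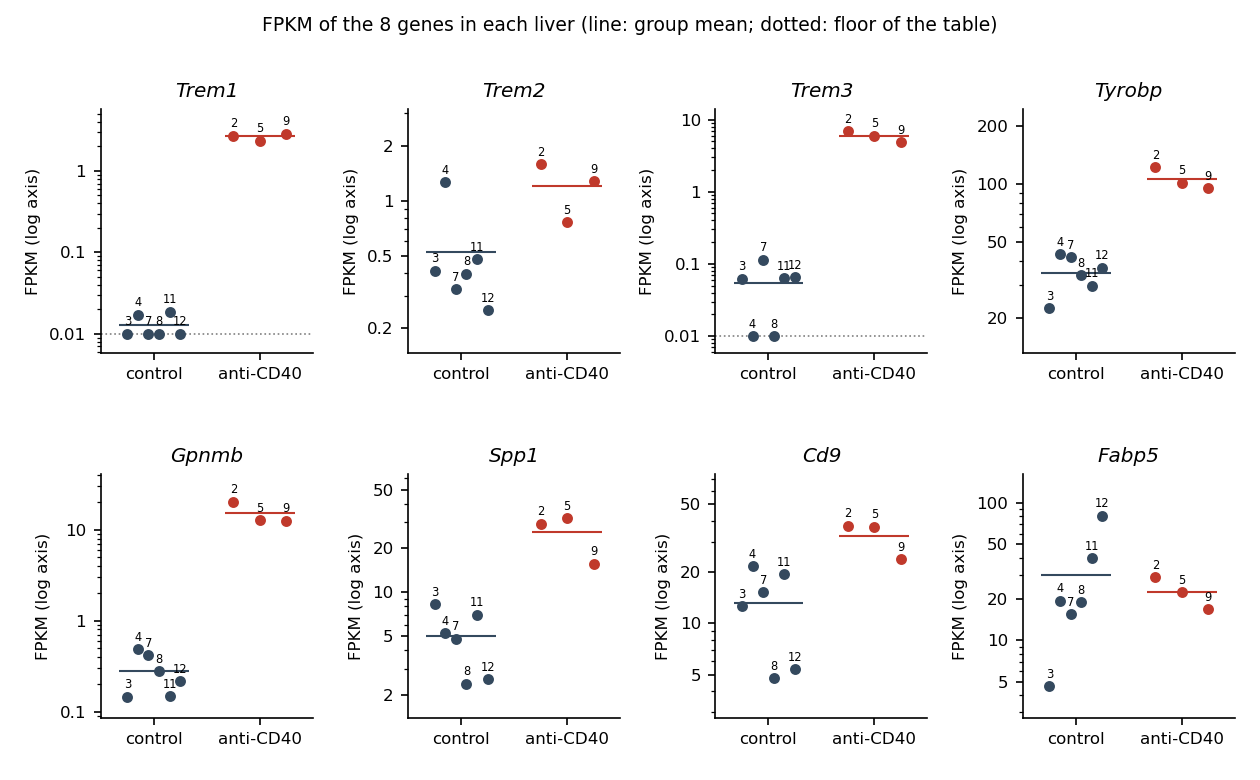
FPKM (log axis) of each of the 8 genes in each liver, with 6 control mice (left) and 3 anti-CD40 mice (right) in each panel, points numbered by mouse and lines at the group means. The groups are apart for all genes except Trem2, where control mouse 4 (1.26) lies among the anti-CD40 mice, and Fabp5, where the control mice spread from 4.65 to 81.1.

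Trem1 and Trem3, neighbours on chromosome 17, rose from close to nothing. Trem1 (chr17:48232739-48246924) had an FPKM of 2.72, 2.36, and 2.87 in anti-CD40 mice 2, 5, and 9, and control mice ranged from 0.01, the lowest value in the table, through a median of 0.01 to 0.0187. The step between low values of the table gave these as 170, 139, and 157 reads, against 2 reads in the 6 control mice together. All 3 anti-CD40 livers were high and alike, and 4 of the 6 control livers held no read. The difference was a log2 fold change of 4.61 (SE 0.17, 95% interval 4.23 to 4.98, adjusted p = 7.08e-08 from limma). With only 2 control reads the ratio is poorly bounded above: scaled to depth it was 427, with a counting interval of 118 to 3538 if these read numbers hold. The annotation places a processed pseudogene, AC241601.2, on the opposite strand within Trem1. Whether counting used strand is not given in the sources used here.

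Trem3 (chr17:48247729-48258847), a receptor that is a working gene in mice and a pseudogene in humans, had an FPKM of 6.97, 5.98, and 4.83 in anti-CD40 mice 2, 5, and 9. Control mice ranged from 0.01 through a median of 0.0625 to 0.115. In reads, these were 130, 105, and 79 against 5 in the 6 control mice together, a ratio of 115 with a counting interval of 48.8 to 357. No control liver came near the anti-CD40 livers. The log2 fold change was 5.31 (SE 0.25, 95% interval 4.76 to 5.87, adjusted p = 3.04e-07), which placed Trem3 at rank 36 and Trem1 at rank 60 among all genes tested. The size depends on the constant added before the logarithm: with 1 in place of 0.1 the log2 fold changes were 1.85 for Trem1 and 2.71 for Trem3, and with 0.01 they were 6.89 and 6.82.

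Trem2 (chr17:48346401-48352276) had a smaller fold change. It had an FPKM of 1.58, 0.759, and 1.28 in anti-CD40 mice 2, 5, and 9. The control mice ranged from 0.251 through a median of 0.406 to 1.26, the last in control mouse 4. Control mouse 4 was above anti-CD40 mouse 5 and close to mouse 9, and the other 5 control mice were below all 3 anti-CD40 mice. The read numbers were 31, 14, and 22 after anti-CD40 and 7, 23, 6, 6, 8, and 4 in control mice 3, 4, 7, 8, 11, and 12, so each value rests on few reads. The log2 fold change was 1.17 (SE 0.39, 95% interval 0.30 to 2.04, adjusted p = 0.0320 from limma), and the 2-sided exact permutation test over mice gave p = 0.0476, where the smallest possible is 0.0238. With control mouse 4 left out it was 1.43 (adjusted p = 0.00132). Without anti-CD40 mouse 2 or 9 it was 0.96 or 1.11 and no longer called (adjusted p = 0.137 and 0.0986), and leaving out control mouse 3, 7, 8, 11, or 12 gave adjusted p from 0.05004 to 0.0579. Control mouse 4 also had the highest sum of neutrophil markers among the controls (156 FPKM, where the lowest control had 18.5). Its monocyte and macrophage markers had the highest mean log2(FPKM + 0.1) of the controls (1.64, others 1.10 to 1.54). Their sum was not the highest (54.5 FPKM, where the highest control had 84.9). The part of these cells in its Trem2 value was not tested.

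The other TREM-like receptors of the cluster had smaller fold changes than Trem1 and Trem3. Of the 6 genes of the family that were tested, the 3 above included, 5 were higher, none was lower, and the median log2 fold change was 1.46. Among all genes tested, 23.5% were higher and 21.7% lower. Treml2, known from neutrophils, B cells, and macrophages, rose by 1.75 on the log2 scale (adjusted p = 0.000577). It had 43, 40, and 31 reads in the anti-CD40 livers against 0 to 12 in the control livers. With a control mean of 0.0614 FPKM, Treml2 also passed the filter only through the anti-CD40 livers. Treml4, known from macrophages and dendritic cells, had 0.94 (adjusted p = 0.00639). Treml1, a platelet receptor, had 0.45 and did not pass the test (adjusted p = 0.527). The platelet markers, as a sum, were 21.2 to 28.6 FPKM after anti-CD40 and 11.1 to 39.5 in controls, a sum made up mostly by Pf4, which did not pass the test (0.25, adjusted p = 0.592). Of the 6 platelet markers tested 3 were higher, Gp1bb (1.39, adjusted p = 0.0268), Gp6 (1.29, adjusted p = 0.0214), and Itga2b (0.53, adjusted p = 0.0114), and none was lower. Gp6 passed the filter on low values only through the anti-CD40 livers. The part of platelets in the values of Treml1 and Cd9 was not tested.

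Tyrobp, whose product DAP12 carries the signal of TREM1, TREM2, and TREM3, was already well measured in control livers and rose about 3-fold. It lies at chr7:30413788-30417579. Mice 2, 5, and 9 of the anti-CD40 group had an FPKM of 122, 102, and 94.9, and the values were 22.6 to 43.3 with a median of 35.2 in control mice. Every anti-CD40 liver was above every control liver by a wide margin. Its log2 fold change was 1.64 (SE 0.20, 95% interval 1.20 to 2.08, adjusted p = 9.05e-05), from means of 106 ± 14.3 (SD, n = 3) and 34.6 ± 7.76 (SD, n = 6).

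Signalling genes around DAP12 rose with it. Of 17 tested adaptors, kinases, and phosphatases of ITAM signalling, Tyrobp included, 16 were higher and none was lower, with a median log2 fold change of 1.73. Among all genes tested, 23.5% were higher and 21.7% lower. Lat2, an adaptor that links such receptors to downstream enzymes, rose by 3.95 on the log2 scale (adjusted p = 5.47e-06), the Src family kinase Fgr 2.96 (adjusted p = 2.72e-06), and Syk 2.40 (adjusted p = 3.89e-06). The alternative adaptors rose as well, Fcer1g, the common chain of Fc receptors, by 1.83 (adjusted p = 0.000180) and Hcst, which encodes DAP10, by 1.05 (adjusted p = 0.00294). The gene of the list not called was Pik3ap1.

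Of 8 tested receptors other than TREMs that signal through DAP12 or a like adaptor, 7 were higher and 1 was lower, with a median of 0.94. The shares over all genes tested were 23.5% higher and 21.7% lower. Clec5a, a C-type lectin receptor of myeloid cells, rose by 4.44 on the log2 scale (adjusted p = 9.05e-07), with an FPKM of 2.95 ± 0.833 (SD, n = 3) against 0.0392 ± 0.0306 (SD, n = 6). It passed the filter on low values only through the anti-CD40 livers. Cd300lb, an activating receptor of myeloid cells, had 1.84 and the ITAM-bearing Nfam1 1.25, and Cd300ld was the lower one at -0.97 (adjusted p = 0.000193). The count of 7 rests on single livers, and was 4, 3, and 4 without anti-CD40 mouse 2, 5, and 9 and 4 without control mouse 11.

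Genes for proposed TREM ligands and for the proteases that cut TREM2 from the surface moved in both directions. Of 9 tested, 6 were higher and 2 were lower, with a median of 0.79, where 23.5% of all genes tested were higher and 21.7% lower. Pglyrp1, a peptidoglycan recognition protein of neutrophil granules that binds TREM1, rose by 3.16 on the log2 scale (adjusted p = 0.00189). The sheddases Adam10 and Adam17 had 0.84 (adjusted p = 0.0177) and 0.79 (adjusted p = 0.000678). The apolipoproteins Apoe and Apoa1, which TREM2 binds and which hepatocytes make in bulk, fell by 1.79 (adjusted p = 0.000309) and 0.997 (adjusted p = 0.0248) on the log2 scale. Other proposed TREM2 ligands of the list that hepatocytes also make were higher, Clu by 0.85 (adjusted p = 0.00284) and Apob by 0.74 (adjusted p = 0.0132). Without anti-CD40 mouse 2 or 9, only 1 of the 9 genes was called lower. Of the 10 hepatocyte markers 8 were called lower, and the part of hepatocytes in the fall of Apoe and Apoa1 was not tested.

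Among Gpnmb, Spp1, Cd9, and Fabp5, Gpnmb had the largest fold change. It encodes a transmembrane glycoprotein of lysosomes and melanosomes and lies at chr6:49036518-49058182. After anti-CD40 its FPKM was 20.4, 12.6, and 12.6 (mice 2, 5, and 9), and it was 0.146 to 0.485 with a median of 0.247 in control mice. The lowest anti-CD40 liver was far above the highest control liver, and mouse 2 stood above the other anti-CD40 mice. The log2 fold change was 5.37 (SE 0.31, 95% interval 4.68 to 6.07, adjusted p = 1.00e-06), rank 33 of all genes tested. By reads, 1626, 948, and 880 in the anti-CD40 livers compared with 10 to 36 in the control livers, a ratio of 53.7 with a counting interval of 44.7 to 65.0. These intervals cover counting error only.

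Gpnmb is a known target of the MiT/TFE transcription factors, which control lysosomal genes. Of 14 tested factors and targets, Gpnmb included, 6 were higher, 1 was lower, and 7 were not called, with a median log2 fold change of 0.18. For all genes tested, the shares were 23.5% higher and 21.7% lower. The factors Tfec (0.80, adjusted p = 0.0134), Mitf (0.57, adjusted p = 0.0224), and Tfe3 (0.53, adjusted p = 0.0296) were higher, and Tfeb was not called (-0.07, adjusted p = 0.899). Among the others, Hif1a, the oxygen-regulated factor, had 1.11 (adjusted p = 2.65e-05) and Rragd, a lysosomal GTPase subunit, 1.07 (adjusted p = 0.00126). Atp6v0d2, a subunit of the lysosomal proton pump in macrophages and osteoclasts, fell by 2.31 (adjusted p = 0.000236). Without anti-CD40 mouse 2 the list had 3 higher and 2 lower, and without control mouse 4 or 7 it had 2 lower.

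Spp1 and Cd9 rose less and with a wider spread. Spp1, which encodes osteopontin and lies at chr5:104435111-104441053, had an FPKM of 29.2, 31.8, and 15.6 in anti-CD40 mice 2, 5, and 9, and 2.37 to 8.28 with a median of 5.04 in control mice. The groups were apart, with mouse 9 below the other anti-CD40 mice and above the highest control mouse. This was a log2 fold change of 2.39 (SE 0.41, 95% interval 1.49 to 3.30, adjusted p = 0.000849). Another annotated transcript, Gm42793, lies within Spp1 on the same strand, and the reads of the pair cannot be told apart. Cholangiocytes are a known source of osteopontin in the liver, and their markers moved in both directions. Of the 8 tested, Sox9 (3.57, adjusted p = 6.40e-06) and Cldn4 (1.66, adjusted p = 0.000328) were higher. Cldn4 passed the filter on low values only through the anti-CD40 livers. Tstd1 was lower (-0.94, adjusted p = 0.0106), and 5 were not called, among them Krt19 (0.90, adjusted p = 0.235) and Krt7 (0.19, adjusted p = 0.671). Their summed FPKM, mostly that of Tstd1, was 157 to 169 after anti-CD40 and 151 to 304 in controls, whereas their mean log2(FPKM + 0.1) was 0.89 to 1.12 after anti-CD40 and 0.21 to 0.95 in controls. The part of cholangiocytes in the rise of Spp1 was not tested.

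Genes for receptors of osteopontin moved in both directions. Of 9 tested, 4 were higher and 2 were lower, with a median of 0.45, where 23.5% of all genes tested were higher and 21.7% lower. Cd44, an adhesion receptor of activated leukocytes, rose by 2.86 on the log2 scale (adjusted p = 2.88e-06), and the integrin subunit Itga4 of leukocytes 2.05 (adjusted p = 6.24e-06). Itga8, an integrin subunit of stellate cells, fell by 1.40 (adjusted p = 0.00906), and the other one called lower was Itgb5. Without anti-CD40 mouse 2 or 5, only 1 was lower.

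Cd9, a tetraspanin found on macrophages, platelets, B cells, and epithelium, lies on the minus strand at chr6:125460266-125494755. Mice 2, 5, and 9 of the anti-CD40 group had an FPKM of 37.4, 36.8, and 23.8. Control mice ranged from 4.76 through a median of 13.9 to 21.6, with mice 8 and 12 at 4.76 and 5.40 well below the other 4. Every anti-CD40 liver was above every control liver, mouse 9 by little. Cd9 had a log2 fold change of 1.49 (SE 0.48, 95% interval 0.43 to 2.56, adjusted p = 0.0268), and Cd9 was no longer called without anti-CD40 mouse 2 (1.38, adjusted p = 0.0957) or mouse 5 (1.39, adjusted p = 0.0873). The transcripts Gm28809 and Gm26728 overlap Cd9 on the other strand.

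Calls in the tetraspanin family are given beside those of all genes tested, of which 23.5% were higher and 21.7% lower. Of 17 tested tetraspanins and CD9 partners, Cd9 included, 6 were higher, 3 were lower, and 8 were not called, with a median of 0.10. The higher ones were led by the lysosomal Cd63 (3.66, adjusted p = 1.73e-06) and by the leukocyte tetraspanins Cd37 (2.59, adjusted p = 1.43e-05) and Cd53 (1.89, adjusted p = 0.000440).

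Fabp5, an intracellular carrier of fatty acids, was the gene of the 8 that did not pass the test. It lies at chr3:10012585-10016610. After anti-CD40 its FPKM was 28.7, 22.4, and 16.8 (mice 2, 5, and 9), whereas the control mice ran from 4.65 (mouse 3) through a median of 19.2 to 81.1 (mouse 12). The anti-CD40 livers lay within the range of the control livers. The log2 fold change was 0.07 (SE 0.70, 95% interval -1.48 to 1.62, adjusted p = 0.945, exact permutation p = 0.952), so a rise or a fall of over 2-fold lies within the interval. Its sign turned when anti-CD40 mouse 2 (-0.12), control mouse 3 (-0.36), or control mouse 7 (-0.018) was left out. Fabp5 is also known from keratinocytes and fat. The summed markers of those cells were highest in control mice 7 (43.6 FPKM) and 4 (35.5), through the fat gene Adipoq, and were 4.57 and 4.56 in control mice 3 and 12, where Fabp5 was lowest and highest. The keratinocyte gene Sfn was 2.01 FPKM in control mouse 3 and 3.27 and 3.19 in control mice 11 and 12, which had the highest Fabp5 values, and 4.65 to 6.61 after anti-CD40. The other keratinocyte genes listed, Krt5 and Krt14, were both at the floor of 0.01 in control mice 3, 11, and 12. The part of these cells in Fabp5 was not tested.

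Among 8 tested fatty acid binding proteins and relatives, Fabp5 included, none was higher and 2 were lower, with a median of -0.20. For all genes tested, the shares were 23.5% higher and 21.7% lower. Fabp1, the carrier of hepatocytes, fell by 2.05 (adjusted p = 0.000917), and Fabp7, known from brain and also found in mouse liver, by 2.41 (adjusted p = 0.000236). Fabp4, a carrier of adipocytes, endothelium, and macrophages, had an FPKM of 444 ± 87.6 (SD, n = 3) after anti-CD40 and 318 ± 317 (SD, n = 6) in controls, a log2 fold change of 1.06 that did not pass the test (adjusted p = 0.250).

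Of the 32 genes listed for lipid-associated macrophages, among them Trem2, Gpnmb, Spp1, Cd9, and Fabp5, 22 were higher, 3 were lower, and 7 were not called. Their median log2 fold change was 1.23. The shares over all genes tested were 23.5% higher and 21.7% lower. Besides Gpnmb the differences were led by Cst7, an inhibitor of lysosomal cathepsins (5.35, adjusted p = 1.50e-07), Capg, an actin-capping protein (4.23, adjusted p = 5.56e-07), and Itgax, the integrin chain CD11c (4.21, adjusted p = 1.20e-06). Cst7 had an FPKM of 26.01 ± 5.53 (SD, n = 3) against 0.546 ± 0.152 (SD, n = 6). The lower genes were Lipa, the lysosomal acid lipase (-0.77, adjusted p = 0.00100), Atp6v0d2, and Apoe. Several of these genes are also expressed by neutrophils, dendritic cells, or hepatocytes.

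**Figure D2:**
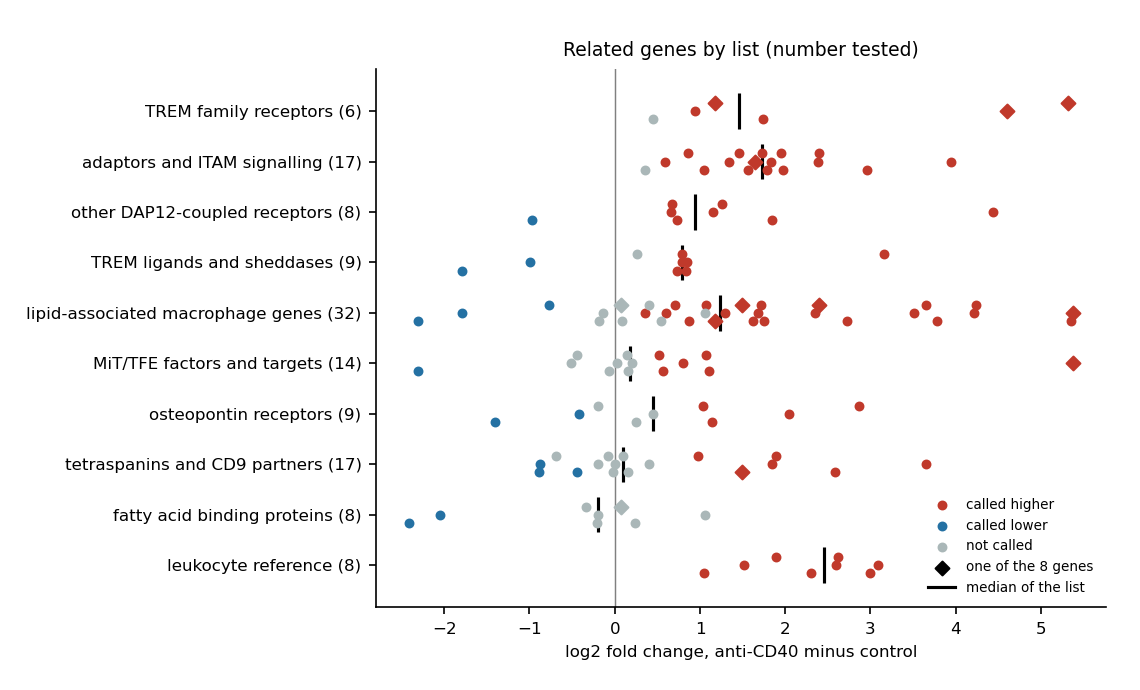
Log2 fold change (anti-CD40 minus control) of every tested gene of each list, 1 row per list, with the median of the list marked. The medians ran from -0.20 for the fatty acid binding proteins to 1.73 for the adaptors and ITAM signalling genes among the lists related to the 8 genes.

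Because genes of all leukocytes rose in these livers, the 8 genes were also compared after the mean log2(FPKM + 0.1) of 8 such genes (Ptprc, Laptm5, Coro1a, Lcp1, Cd53, Arhgdib, Itgb2, and Rac2) was subtracted in each mouse. This mean was 4.38, 4.29, and 4.19 after anti-CD40 (mice 2, 5, and 9) and 1.74 to 2.40 in control mice. All 8 of its genes were called higher, from Laptm5 (1.05) and Lcp1 (1.52) to Itgb2 (2.99) and Coro1a (3.09). After the subtraction, 2 of these 8 leukocyte genes were themselves called higher and 2 lower (Laptm5 at -1.21 and Lcp1 at -0.74). On this scale 3 of the 8 genes were called higher, against 2.13% of all genes tested, and 3 were called lower, against 91.6%.

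The genes above the leukocyte genes were Gpnmb, Trem3, and Trem1. Trem3 and Trem1 had passed the filter on low values only through the anti-CD40 livers. Gpnmb exceeded the leukocyte genes by 3.11 on the log2 scale (SE 0.23, adjusted p = 1.47e-07), Trem3 by 3.05 (SE 0.30, adjusted p = 1.06e-06), and Trem1 by 2.35 (SE 0.23, adjusted p = 9.59e-07). All 3 values depend on the constant. With 1 in place of 0.1, Trem1 was at -0.07 and no longer called (adjusted p = 0.549), Trem3 at 0.78 (adjusted p = 7.50e-05), and Gpnmb at 1.71 (adjusted p = 9.26e-08), and with 0.01 they were at 4.58, 4.51, and 3.51. Spp1 was not called against the leukocyte genes, at 0.13 (SE 0.43, 95% interval -0.81 to 1.08, adjusted p = 0.768).

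Trem2, Tyrobp, and Fabp5 were called below the mean of the leukocyte genes. The leukocyte genes themselves ran from -1.21 (Laptm5) to 0.83 (Coro1a) on this scale, a range that holds the values of Trem2 and Tyrobp. Relative to their mean, Trem2 was at -1.08 (SE 0.34, adjusted p = 0.00921), Tyrobp at -0.62 (SE 0.16, adjusted p = 0.00294), and Fabp5 at -2.19 (SE 0.65, adjusted p = 0.00629), and Cd9 was not called (-0.76, SE 0.45, adjusted p = 0.121). The call for Trem2 was lost without anti-CD40 mouse 5 (-0.81, adjusted p = 0.0622) and without that mouse and control mouse 4 together (-0.62, adjusted p = 0.0715). That for Tyrobp was lost with a constant of 1 (-0.31, adjusted p = 0.0748) and with quantile normalization (-0.30, adjusted p = 0.0707). Cd9 was called lower without control mouse 8 (-1.01, adjusted p = 0.0225) or 12 (-0.97, adjusted p = 0.0421). With the monocyte and macrophage markers as the reference, none of the 8 genes was called lower: Tyrobp was at 0.35 (adjusted p = 0.0530), Trem2 at -0.11 (adjusted p = 0.768), and Spp1 at 1.11 (adjusted p = 0.0334). On that scale 5.91% of all genes tested were called higher and 79.3% lower.

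**Figure D3:**
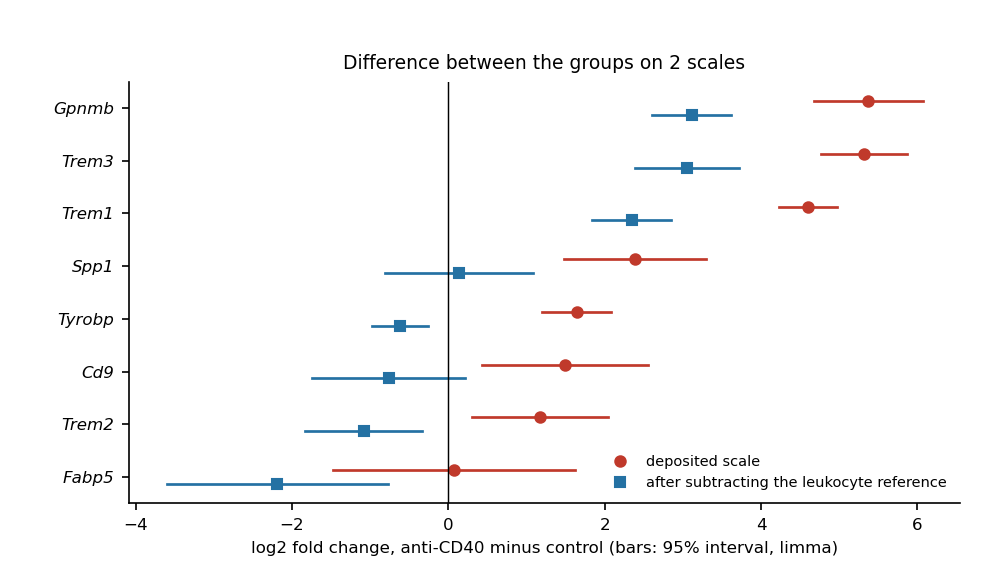
Log2 fold change (anti-CD40 minus control, with 95% interval) of the 8 genes as deposited and after subtracting the mean of the leukocyte genes in each mouse. With 0.1 added to each FPKM, Gpnmb, Trem3, and Trem1 lie above 0 on both scales, Spp1 moves to 0.13, and Trem2, Tyrobp, and Fabp5 lie below 0 on the second scale.

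Of the 32 lipid-associated macrophage genes, 7 were called above the leukocyte genes and 17 below. On this scale 2.13% of all genes tested were called above and 91.6% below. The 7 were Gpnmb, Cst7 (3.09), Capg (1.98), Itgax (1.95), Lgals3 (1.52), Cd63 (1.40), and Mmp12 (1.25), of which Lgals3, Cd63, and Mmp12 were singled out after their values were seen. Lgals3 encodes a lectin of macrophages, and Mmp12 the macrophage elastase. Of the 17 adaptor and ITAM signalling genes, 2 were above the leukocyte genes and 9 below.

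Markers of the cells that could carry these transcripts moved in different directions. The Kupffer cell markers, those of the resident macrophages of the liver, had a summed FPKM of 58.9 to 71.3 after anti-CD40 and 338 to 505 in control livers, and 8 of the 9 tested were lower and none was higher. The defining Clec4f was at 0.01 to 0.218 after anti-CD40 and at 15.3 to 24.8 in controls. Monocyte and macrophage markers summed to 138 to 160 against 46.7 to 84.9. Of this sum, Ly6c2 alone made up 51.7 to 72.0 FPKM after anti-CD40 and 0.691 to 2.51 in controls. Of the 11 tested, 6 were higher, among them Ly6c2 (5.61) and Ccr2 (2.80) of monocytes. The 1 lower gene was Adgre1, which encodes F4/80 (-1.49), while Csf1r was not called (-0.62, adjusted p = 0.0837). Neutrophil markers summed to 4240 to 5223 against 18.5 to 156, mostly through S100a8 and S100a9, and all 10 tested were higher. Among these, Cxcr2, Mmp8, Ngp, and Ltf averaged under 0.1 FPKM in controls. They passed the filter on low values only through the anti-CD40 livers, so they could be tested only if higher. Dendritic cell markers summed to 13.3 to 17.6 against 3.51 to 6.80. The part of each cell type in the values of the 8 genes was not tested.

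**Figure D4:**
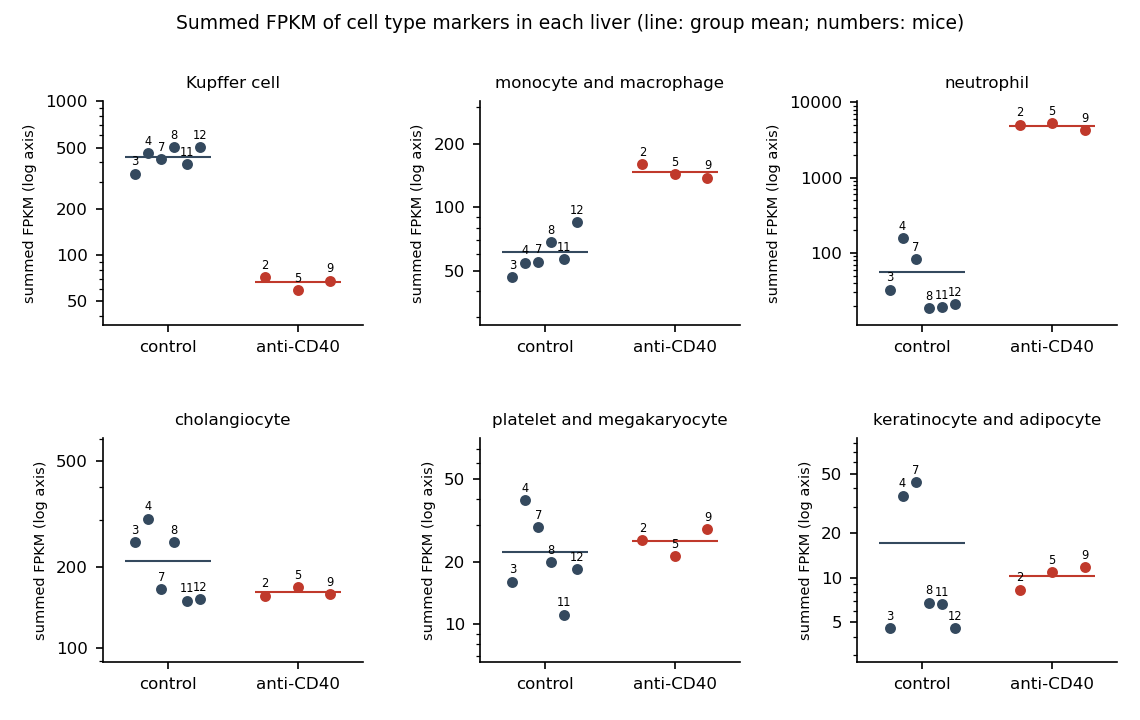
Summed FPKM (log axis) of the markers of 6 cell types in each liver, with points numbered by mouse and lines at the group means. Kupffer cell markers are lower and monocyte and neutrophil markers higher in all 3 anti-CD40 livers, whereas the groups overlap for cholangiocyte, platelet, and keratinocyte and adipocyte markers.

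The 3 genes most like each of the 8 by Pearson's r of log2(FPKM + 0.1) over the 9 mice are given as a description. Since the group difference enters r, 1590 genes exceeded 0.9 with Trem1, 1450 with Trem3, 1485 with Tyrobp, and 1720 with Gpnmb. Trem1 was most like Stfa1 (0.999), Kcnab2 (0.998), and the neutrophil collagenase gene Mmp8 (0.998), and Trem3 was most like Elovl7 (0.996), Aida (0.996), and Guca2b (0.994). Tyrobp was most like Ms4a4c (0.994), Loxl2 (0.992), and the cathepsin gene Ctss (0.991), and Gpnmb was most like Cd52, Lgals3 (both 0.998), and Vasp (0.997).

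For the remaining 4, fewer genes exceeded 0.9. Trem2, with 153 genes over 0.9, was most like Qrich1 (0.989), Tbp (0.979), and Sav1 (0.973). Spp1, with 244, was most like Tbc1d9 (0.987), Hnrnpa3 (0.976), and Pold3 (0.975), and Cd9, with 187, was most like Tgfbr2, Il6 (both 0.978), and Fat1 (0.974). For Fabp5 only 3 genes exceeded 0.9: Nbas (0.937), Tspan33 (0.920), and Golga1 (0.913). Within the 8, r was 0.991 between Trem1 and Trem3 and 0.90 between Spp1 and Cd9, and Fabp5 had r between -0.172 and 0.195 with the other 7.

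Depth was even across the livers. By the step between low values, it was 0.991 to 1.13 times the geometric mean after anti-CD40 and 0.870 to 1.06 times in controls, and absolute read totals are unknown. The acute phase genes Saa1, Saa2, and Saa3 made up 25.4% to 25.9% of the summed FPKM after anti-CD40 and 0.0449% to 0.380% in controls. With these genes removed and the totals of all mice set equal, the median of all genes moved by 0.34 on the log2 scale. After this rescaling the 8 genes stood at 4.85 (Trem1), 1.49 (Trem2), 5.59 (Trem3), 2.01 (Tyrobp), 5.70 (Gpnmb), 2.75 (Spp1), 1.86 (Cd9), and 0.43 (Fabp5). Rescaling moves all genes of a mouse nearly alike, so values relative to the shift of the median fall close to the unscaled ones by construction. They were 4.51 (Trem1), 1.15 (Trem2), 5.25 (Trem3), 1.66 (Tyrobp), 5.36 (Gpnmb), 2.41 (Spp1), 1.51 (Cd9), and 0.09 (Fabp5). Pancreas markers summed to 841 FPKM in anti-CD40 mouse 5 and to 27.8 to 190 in all other mice. Without control mouse 4 and anti-CD40 mouse 5 together, 7 of the 8 genes were called higher.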

How the data were processed

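RNA from the livers of 9 mice was made into libraries by the authors with the QuantSeq 3′ FWD kit and sequenced on a NextSeq 500. They aligned the reads to mm10 with STAR and ran Cufflinks and Cuffdiff. The deposited values are FPKM, with a floor of 0.01. The annotation, the filter, and the strand setting are not given in the sources used here. FPKM divides by transcript length, which 3′ reads do not scale with, so levels are compared within a gene only. Fold changes and p-values that the authors may have made were not used.

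The 15 genes with a failed estimate were left out. For the 13807 genes averaging 0.1 FPKM or more, log2(FPKM + 0.1) of the deposited values was fitted in limma 3.58.1 (R 4.3.3; lmFit, eBayes with a trend, 2-sided, Benjamini-Hochberg over all genes tested, threshold 0.05). Exact permutation tests used all 84 choices of 3 of the 9 mice. No source says whether mice shared a cage or litter. The same fit was repeated after subtracting the leukocyte genes. No set test was run. Reads are the smallest whole numbers that explain the steps between low values within 0.15 reads, up to 50 reads in the check, where 88.5% of 2547 low genes came out whole. Reads were worked out only for the tested TREM and TREM-like genes and for Gpnmb. The deposited values are FPKM and not counts, so no count test was run.

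The 8 genes and the lists were chosen with earlier results of these data known. From each list, the 3 largest differences and the genes needed to describe a member were named, and the few genes called against the direction of a list were added after their values were seen. Alternatives were pseudocounts of 1 and 0.01, no filter, a mean FPKM of at least 1, quantile and median of ratios scaling, rescaling without Saa genes, eBayes without trend or robust, array weights, and each mouse left out. A pair of them, leaving out control mouse 4 and anti-CD40 mouse 5 together and the monocyte and macrophage reference, was added after seeing the data. Scripts were tested on simulated data and used Python 3.11.15, numpy 2.4.6, pandas 2.3.3, scipy 1.17.1, and matplotlib 3.10.9.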

Additional observations from a re-analysis of the deposited data

Results flagged for a closer look

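Among 23 results examined, 3 had 1 control mouse far from the other 5, by a gap over Dixon's 95% critical value for 6 samples. Chance gives such a gap in about 1 of 20 groups. Trem2 was highest in control mouse 4, at 1.26 FPKM against 0.251 to 0.478 in the other control mice (gap 0.774 of the range). The summed B cell markers were also highest in control mouse 4, at 6.85 FPKM against 1.605 to 3.57 (gap 0.625017 of the range). The summed pancreas markers were highest in control mouse 7, at 190 FPKM against 70.3 to 112 (gap 0.656).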

How the results depend on the processing

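No paired analysis was possible because the groups share no mouse numbers. In all 20 alternatives, 5 to 7 of the 8 genes were called higher and none lower. Trem1, Trem3, Tyrobp, Gpnmb, and Spp1 stayed called wherever they had a value, whereas Trem2 lost its call in 9 of 19 alternatives (0.55 to 1.71 on the log2 scale, with no filter at adjusted p = 0.0991 and with quantile normalization at 0.107) and Cd9 in 3 of 20 (1.25 to 1.86). Trem1 and Trem2 have no value at a mean FPKM of at least 1. Fabp5 ran from -0.36 to 0.46 as each mouse was left out. Of all genes, 5633 were higher and 1647 lower after rescaling without the Saa genes (77.4% of calls higher, against 52.0%), 2969 and 3424 with quantile normalization (46.4%), and 2182 and 2703 at a mean FPKM of at least 1 (44.7%). Relative to the leukocyte genes, Spp1 ran from -0.054 to 0.41 as each mouse was left out, and was -0.087 without control mouse 4 and anti-CD40 mouse 5. Trem1 was -0.075 with a pseudocount of 1. With the monocyte and macrophage markers as the reference, 0 of the 8 genes were called lower, Tyrobp was 0.35, and Cd9 was 0.21. The cause was not tested. Values under about 10 reads are limited by counting.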
